A study of Mus musculus with 24 samples.

Results

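A set of 10 genes known from epithelial cells, injured tissue or cell types other than fat were followed in differentiating brite adipocytes after knockdown of the long noncoding RNA Ctcflos. They comprise the simple-epithelial keratins Krt8, Krt18 and Krt19, the cornified envelope precursors Sprr1a and Sprr2k, the membrane proteins Cd24a, Mal, Tmem59l and Olr1, and the secreted protease inhibitor Tfpi2. The 10 genes were taken by symbol from the 52089 symbols of the deposited RPKM table, and each is represented by its transcript entry of highest mean RPKM over the 24 libraries. They had been picked for their levels in knockdown against control cells at 24 h and 72 h. Their differences in those 2 comparisons are therefore given as a description without a test.

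The cells were primary preadipocytes of the stromal-vascular fraction of inguinal white fat from 129SvEv mice, given 2 days of induction and then 1 day of differentiation with rosiglitazone, a PPARγ agonist that promotes browning. The mice were male according to the methods, and their age was not used here. All 4 groups shared this treatment and were then reverse transfected with 50 nM of an LNA gapmer, a short modified DNA strand whose pairing to an RNA leads to cleavage of that RNA by RNase H. Knockdown cells (KD) received the gapmer against Ctcflos and control cells (NC) a non-targeting gapmer, and RNA was collected after 24 h or 72 h, with 6 libraries for each gapmer and time. The contrast is between gapmers, so that loss of Ctcflos and any other effect of the targeting oligonucleotide cannot be told apart. The study calls its replicates biological, but the labels do not say whether libraries of a group came from separate cultures, and p-values measure the spread between these samples.

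Keratins form the intermediate filaments of epithelia as pairs of a type I and a type II chain; Krt19 and Krt18 are type I chains, and Krt8 is the type II partner of both in simple epithelia. Small proline-rich proteins such as Sprr1a and Sprr2k are cross-linked by transglutaminases into the cornified envelope of stratified epithelia, and Sprr1a is also known as a gene induced by injury in nerve and heart. Cd24a is a glycosyl-phosphatidylinositol-anchored glycoprotein of epithelial progenitors, adipocyte progenitors and immune cells, and Mal is a proteolipid of membrane rafts in polarized epithelia, T cells and myelin. Olr1 is known from endothelium and macrophages and also from fat cells, whereas keratins and SPRR proteins are not usual products of mature adipocytes.

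The libraries were sequenced to between 1391830 and 5423837 reads (median 3945866), as recovered from the steps of the deposited values. NC 72 h replicates 2 and 3 differed by 0.34 times the counting noise, where the next closest pair of libraries differed by 1.89 times, and were counted as 1 sample (n = 5). In NC 72 h replicate 6 only 74.4% of low values were whole reads within 0.1 read, against 95.1% to 95.6% in the other libraries, and leaving it out moved no fitted log2 fold change of the 10 genes at 72 h by more than 0.41. Libraries were clustered on deviations from their group means over the 6738 genes with 10 or more reads in every library. The number of sets was fixed at 2, which gave a larger set of 16 and a smaller set of 8. Between libraries of different groups the mean correlation was weak, 0.1 within a set and -0.12 between sets. The smaller set held 2 libraries of each group. Values within each set are given below for the 10 genes and for named list genes whose call differed most. Ctcflos itself was close to the detection limit. Its entry NR_040321 had 0.19 ± 0.24 RPKM in KD 24 h (SD, n = 6), 0.74 ± 0.52 in control cells of that time, 0.23 ± 0.22 in KD 72 h and 1.23 ± 0.41 in NC 72 h (n = 5), and KD overlapped the controls at 24 h but not at 72 h. The entry ENSMUST00000144256 is transcript 1 of the study, which centred its transcriptome work on this transcript. This entry had 0.24 ± 0.37 RPKM in KD 24 h, 0.40 ± 0.23 in NC 24 h, 0.12 ± 0.20 in KD 72 h and 1.38 ± 0.93 in NC 72 h. Its KD and control libraries overlapped at both times, and at 24 h it had 8 reads in KD and 12 in NC.

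The genes lie on 7 chromosomes of the mouse genome (GRCm38, GENCODE annotation). Sprr1a (chr3:92483952-92485895, minus strand) and Sprr2k (chr3:92432582-92433925, plus strand) lie 50026 bases apart in the epidermal differentiation complex, and Krt8 (chr15:101996698-102004482, minus strand) and Krt18 (chr15:102028180-102032027, plus strand) lie 23697 bases apart. Krt19 lies at chr11:100140810-100148665, Cd24a at chr10:43578284-43584265, Mal at chr2:127633226-127656695, Tmem59l at chr8:70483867-70487358, Olr1 at chr6:129485244-129507165 and Tfpi2 at chr6:3962595-3988919. Krt8 shares exonic sequence with Gm36026 on the opposite strand, and since strand handling is not given in the sources used here its reads cannot be assigned to 1 of the 2 genes. In their last 600 bases, where the reads of this assay fall, 1.8% of the 50-base windows of Krt18 and 1.0% of those of Cd24a also occur in pseudogenes. The other 8 genes shared no such window.

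The 250 bases before the start of transcription are shown for the 4 genes that hold the letters of an AP-1 site (TGANTCA, searched on both strands), the element bound by Fos and Jun proteins that is known for its role in SPRR gene induction. The sequences are from RefSeq on GRCm38.p6, 5′ to 3′ on the strand of the gene, with matches to any of the motifs named here in capitals. They are chr3:92485882-92486131 for Sprr1a, chr3:92432332-92432581 for Sprr2k, chr6:129507166-129507415 for Olr1 and, for Tfpi2, chr6:3968376-3968625, the only one of its 3 annotated starts with a match.
Sprr1a: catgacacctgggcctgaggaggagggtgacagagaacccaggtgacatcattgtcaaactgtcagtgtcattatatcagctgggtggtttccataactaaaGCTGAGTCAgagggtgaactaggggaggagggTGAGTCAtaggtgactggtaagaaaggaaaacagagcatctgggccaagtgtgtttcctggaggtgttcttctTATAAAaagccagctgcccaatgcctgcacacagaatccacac
Sprr2k: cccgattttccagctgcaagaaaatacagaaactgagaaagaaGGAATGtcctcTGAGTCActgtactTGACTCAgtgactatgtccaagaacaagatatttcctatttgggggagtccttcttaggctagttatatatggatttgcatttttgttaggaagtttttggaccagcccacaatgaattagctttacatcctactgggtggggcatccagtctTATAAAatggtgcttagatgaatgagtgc
Olr1: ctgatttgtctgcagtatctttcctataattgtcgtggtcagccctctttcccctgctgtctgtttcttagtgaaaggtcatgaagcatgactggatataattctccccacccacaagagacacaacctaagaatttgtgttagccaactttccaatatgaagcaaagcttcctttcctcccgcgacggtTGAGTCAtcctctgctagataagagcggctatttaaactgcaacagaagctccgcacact
Tfpi2: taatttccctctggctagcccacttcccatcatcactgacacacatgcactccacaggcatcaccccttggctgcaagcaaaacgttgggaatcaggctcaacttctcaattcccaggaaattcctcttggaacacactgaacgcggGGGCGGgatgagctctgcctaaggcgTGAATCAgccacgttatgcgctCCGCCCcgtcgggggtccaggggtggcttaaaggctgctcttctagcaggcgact
Sprr1a had AP-1 letters at -146 and -116 and Sprr2k at -196 and -182, counted from the start, while Olr1 had them at -60 and Tfpi2 at -77. Promoter windows were at hand for 8 of the 10 genes, without Krt19 and Cd24a, with 10 windows in all, and 4 of the 10 windows, from 4 of the 8 genes, held the AP-1 letters, against 6.75% of the 32851 windows of all genes. Both SPRR genes also held TATAAA (12.4% of all windows), at -43 in Sprr1a and at -29 in Sprr2k. The letters GGAATG, known from TEAD sites, stood in Mal, Sprr2k and Tmem59l (12.6%), GGGCGG, the GC box, in Tfpi2 and Tmem59l (32.7%), and TGACGTCA, the cAMP response element, in Tmem59l at -22 (1.55%). The antioxidant response element TGACNNNGC (10.2%) matched in Sprr1a at -148 to -140, where it overlaps the AP-1 letters, and the E-box CACGTG (6.02%) matched in no gene of the 8. These matches describe letters only, and binding was not measured.

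Krt19 had the highest mean of the listed keratins in each group. In NC 24 h its level ranged from 17.9 to 25.2 RPKM with a median of 20.9, and in KD 24 h from 22.9 to 74.8 with a median of 52.4. In KD 72 h it ranged from 117.8 to 170.2 with a median of 163.4, while the NC 72 h samples had 20.8, 25.8, 23.3, 17.9 and 20. The KD libraries thus overlapped the controls at 24 h and stood apart from them at 72 h. Mean levels were 50.3 ± 22.7 in KD 24 h against 21.1 ± 3.13 in NC 24 h (SD, n = 6 each), and 150.2 ± 24.3 in KD 72 h against 21.5 ± 3.07 in NC 72 h (n = 6 and 5). The fitted log2 fold change of scaled RPKM was 1.06 ± 0.25 (SE) at 24 h and 2.54 ± 0.16 at 72 h. Scaling matters at 72 h, where the deposited RPKM carried a median log2 shift of 0.25 over all entries towards KD; the fitted changes are relative to this shift, and ratios of deposited means contain it. As these are bulk samples, more cells of a type and more RNA per cell cannot be told apart, here and below.

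The 2 partner chains were barely detected. Krt8 had 2 reads over KD 24 h, 10 over KD 72 h and none in either control group, and 6 of the 10 reads came from KD 72 h replicate 6. Against a floor of 3 reads over NC 72 h this is at least 2.69-fold higher, and Krt8 was at 0 in 2 of the 6 KD 72 h libraries. Krt18 had 6 reads in KD 24 h and 5 in NC 24 h, all 5 of them in replicate 1, and 12 in KD 72 h against 3 in NC 72 h. Its read ratio was 1.27 at 24 h (95% counting interval 0.322 to 5.25) and 3.23 at 72 h (0.871 to 17.8), both of which include no difference. The intervals and floors in this text cover counting error only. Thus, of the 3 simple-epithelial keratins, Krt19 was present in every library at a level that neither of its sister genes approached, and for Krt18 a difference was not detectable at this depth.

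Sprr1a, the first cornified envelope precursor, was low in control cells and present in every KD library. It ranged in NC 24 h from 0.76 to 1.65 RPKM with a median of 1.19 and in KD 24 h from 3.32 to 20.9 with a median of 14.5. KD 72 h ranged from 29.6 to 55.5 with a median of 44.6, and the NC 72 h samples had 2.18, 0.70, 2.27, 2.39 and 2.14. No KD library reached down to the controls at either time. The means were 12.9 ± 7.58 against 1.18 ± 0.36 at 24 h and 43.0 ± 9.61 against 1.93 ± 0.70 at 72 h, with a log2 fold change of 3.05 ± 0.40 and 4.24 ± 0.29. The controls rest on few reads, 24 over NC 24 h and 28 over NC 72 h, against 222 and 771 in the KD groups.

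Sprr2k, its neighbour on chromosome 3, was detected mainly at 72 h. Reads summed to 15 in KD 24 h and 3 in NC 24 h, a ratio of 5.28 (1.49 to 28.5), and the libraries overlapped, since KD 24 h replicate 6 had none and NC 24 h replicate 3 reached 0.94 RPKM. In KD 72 h the levels ran from 5.88 to 13.99 RPKM with a median of 7.82 (125 reads), and all NC 72 h libraries were at 0, so that the level was at least 33.6-fold higher. The fitted log2 value of 6.26 for Sprr2k depends on the pseudocount, falling to 3.10 with a pseudocount of 1, and is no bound.

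Cd24a was the other gene whose KD and control libraries stood apart at both times. Levels in NC 24 h ran from 0.18 to 1.36 RPKM with a median of 0.57, and in KD 24 h from 4.93 to 7.95 with a median of 5.86. At 72 h they ran from 10.5 to 28.8 in KD with a median of 16.3, and were 0.38, 0.38, 0.85, 0.58 and 0.56 in NC. Hence every KD library lay above every control at both times. The means of 6.06 ± 1.04 against 0.61 ± 0.42 gave a log2 fold change of 3.25 ± 0.33 at 24 h, and 17.5 ± 6.3 against 0.55 ± 0.19 gave 4.51 ± 0.28 at 72 h. Read support in the controls was again thin, with 30 reads in NC 24 h and 18.5 in NC 72 h.

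Mal was seen in KD 72 h and nowhere else. All 6 deposited Mal entries were at 0 in the 18 libraries of the other groups, and all 6 KD 72 h libraries had reads, from 2.04 to 8.76 RPKM with a median of 7.23 on the short entry AK019046. This entry had 66 reads, which is at least 17.8-fold above the floor of NC 72 h. The full-length entry NM_010762 had 171 reads and was at least 46.0-fold higher. The 2 libraries of the smaller set gave 2.46 and 2.04 RPKM and the 4 of the larger set 6.36 to 8.76, without overlap.

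Tmem59l, a Golgi-associated membrane protein best known from the nervous system, resembled Mal in timing. At 24 h the KD libraries ran from 0 to 2.35 RPKM with a median of 0.83 and the NC libraries from 0 to 0.69 with a median of 0.28, and they overlapped. At 72 h the KD libraries ran from 7.26 to 10.7 with a median of 9.79, above the NC values of 0.92, 0.28, 0.17, 0.14 and 0. The KD 72 h libraries lay close together at 9.51 ± 1.29, against 0.30 ± 0.36, for a log2 fold change of 4.79 ± 0.44. The 46 reads of KD 24 h came to 17 each from replicates 3 and 5, 9 from replicate 4 and 3 from replicate 1.

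Olr1, the lectin-like scavenger receptor for oxidized LDL, was measured on a control level of several RPKM. It ran from 3.95 to 6.24 in NC 24 h with a median of 4.33 and from 4.10 to 6.90 in KD 24 h with a median of 5.74, and the groups overlapped. At 72 h KD ran from 14.6 to 26.6 with a median of 18.8, against 5.88, 5.25, 5.39, 5.23 and 4.73 in NC, with no overlap. The log2 fold change was 0.16 ± 0.21 at 24 h, within its error, and 1.59 ± 0.15 at 72 h.

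Tfpi2, a Kunitz-type inhibitor of serine proteases in the extracellular matrix, was the most abundant of the 10 genes beside Krt19. NC 24 h ran from 16.7 to 26.3 RPKM with a median of 20.2 and KD 24 h from 25.6 to 38.9 with a median of 33.7, so that the groups met at their edges. KD 72 h ran from 89.0 to 123.6 with a median of 92.1, far above 18.2, 29.1, 27.2, 18.6 and 27.9 in NC 72 h. Log2 fold changes were 0.59 ± 0.14 and 1.82 ± 0.16.

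**Figure D1:**
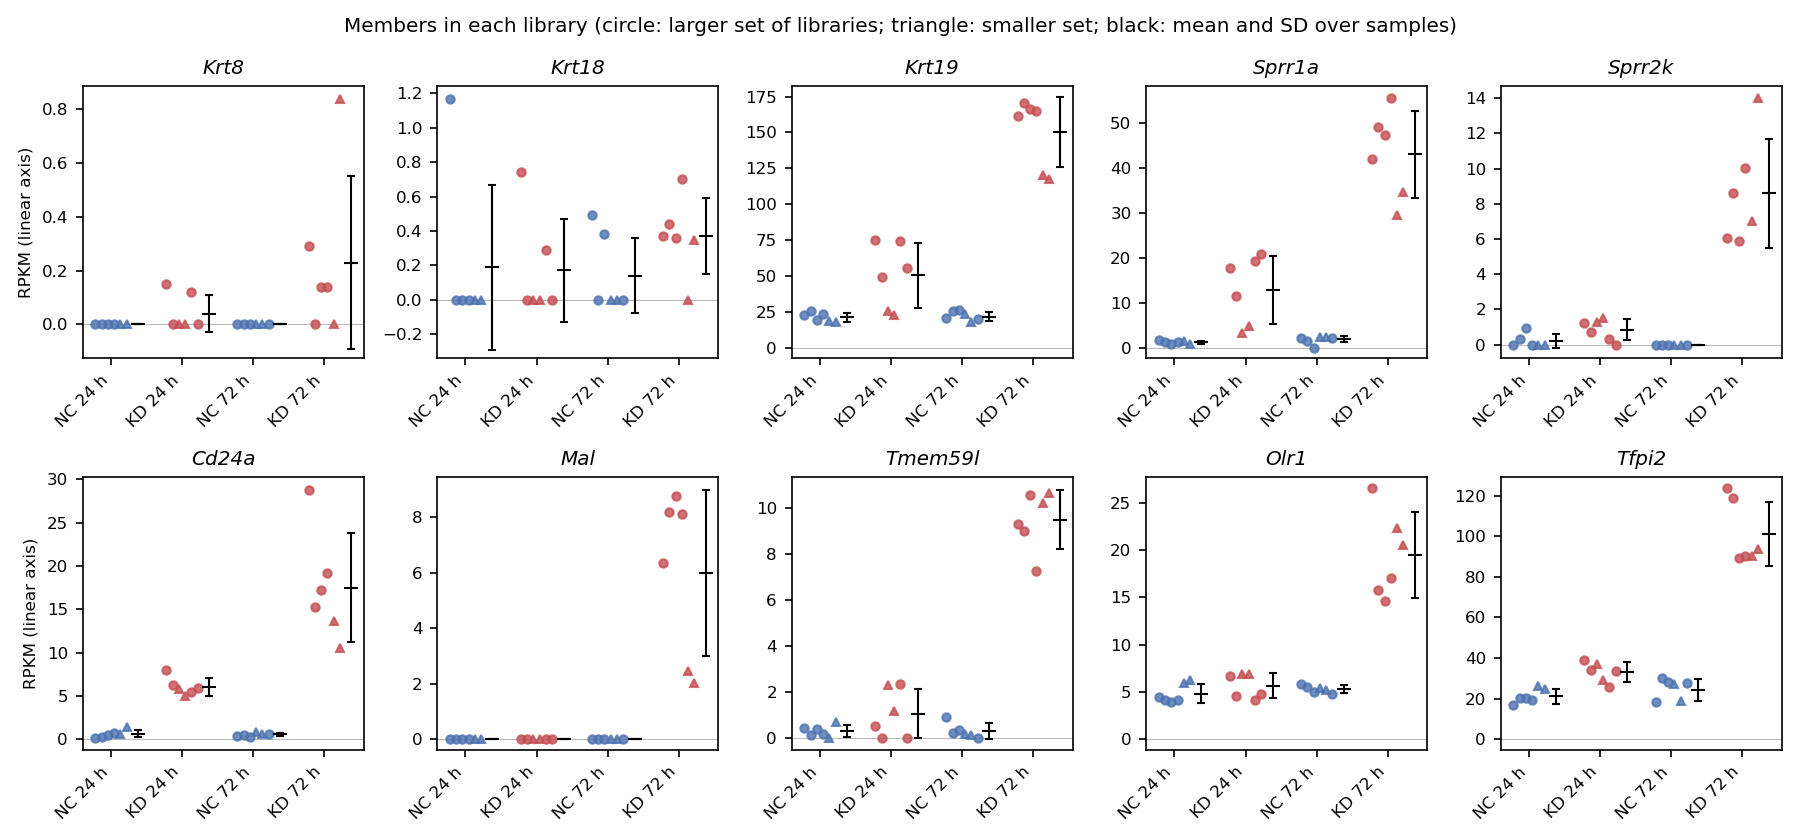
RPKM of the 10 genes in each library on linear axes that differ between panels, with NC in blue, KD in red, circles for the larger and triangles for the smaller set of libraries, and mean and SD over samples in black. At 72 h the KD libraries of 8 genes lie above all controls, and for Krt8 and Krt18 the libraries overlap between 0 and 1.17 RPKM.

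Counted together, every KD library lay above every NC library for 2 of the 10 genes at 24 h, Sprr1a and Cd24a, and for 8 of the 10 at 72 h, all but Krt8 and Krt18. The same held on deposited and on scaled RPKM. Over 1 entry for each symbol tested, 4.55% did so at 24 h and 6.04% at 72 h on scaled RPKM, and 5.08% and 13.9% on deposited RPKM. As the genes were picked on these comparisons, nothing is read from their count. The filter on low values was passed by 5 genes at 24 h (Krt19, Sprr1a, Cd24a, Olr1 and Tfpi2) and by 7 at 72 h, with Sprr2k and Tmem59l added. Sprr1a, Cd24a, Sprr2k and Tmem59l passed it through their KD libraries alone.

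**Figure D2:**
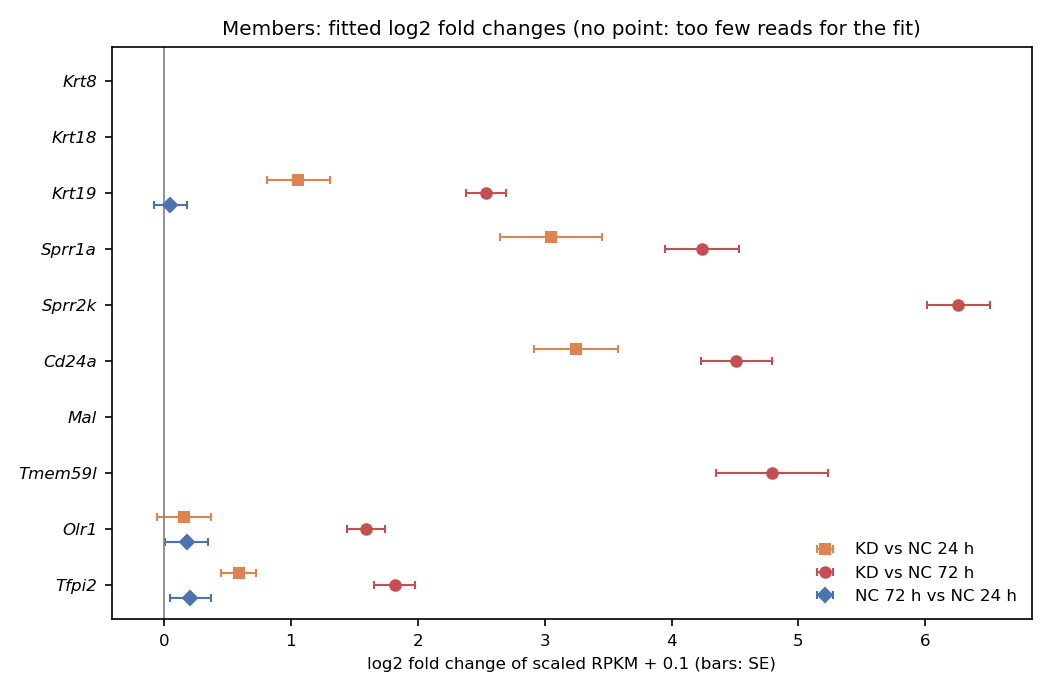
Fitted log2 fold change of scaled RPKM + 0.1 with SE bars for the genes with enough reads, KD against NC at 24 h (squares) and 72 h (circles) and NC 72 h against NC 24 h (diamonds). The 72 h values run from 1.59 for Olr1 to 6.26 for Sprr2k, whose value depends on the pseudocount, and the control values lie between 0.05 and 0.21.

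Ranked by RPKM, which understates long transcripts in 3′ end libraries, Krt19 (21.1 ± 3.13) and Tfpi2 (21.2 ± 3.59) led in NC 24 h and did not differ beyond their spread. They were followed by Olr1 at 4.82 ± 0.99 and Sprr1a at 1.18 ± 0.36, and the other 6 genes had means of 0.61 RPKM or less. In KD 72 h the order was Krt19, Tfpi2 (101.0 ± 15.8), Sprr1a (43.0 ± 9.61), Olr1 (19.5 ± 4.54), Cd24a (17.5 ± 6.3), Tmem59l (9.51 ± 1.29), Sprr2k (8.59 ± 3.08) and Mal (5.98 ± 3.00). Olr1 and Cd24a did not differ beyond their spread, nor did Tmem59l, Sprr2k and Mal on its short entry. On its full-length entry Mal had a mean of 2.75 RPKM in KD 72 h, so its rank depends on the entry. Sprr1a had thus moved above Olr1, which lay above it in the control cells.

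Within KD cells, the levels at 72 h lay above those at 24 h without overlap for the same 8 genes, against 7.09% of the 11206 symbols with enough reads in KD cells. Since the KD levels entered the choice of the genes, nothing is read from this count. The ratio of mean RPKM, KD 72 h over KD 24 h, was close to 3 for Cd24a (2.88), Krt19 (2.98), Tfpi2 (3.06), Sprr1a (3.33) and Olr1 (3.44), and larger for Tmem59l (9.03) and Sprr2k (10.2), which started near the floor. Each of these shares its KD libraries with the comparisons above and was not tested.

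Control cells of the 2 times were compared for change with time in culture alone. This contrast did not enter the choice of the genes. The control levels it compares did enter it, so the tests are not independent of the choice. By limma, 5.48% of the symbols tested were higher and 4.81% lower in NC 72 h than in NC 24 h, and none of the 3 genes with enough reads was called. Their log2 changes were 0.05 ± 0.13 for Krt19 (adjusted p = 0.851), 0.18 ± 0.17 for Olr1 (adjusted p = 0.592) and 0.21 ± 0.16 for Tfpi2 (adjusted p = 0.493). For the 8 genes above 0 in control cells a two-sided exact permutation test, chosen after seeing the data and adjusted over these genes, gave its smallest p for Sprr1a, with 1.18 RPKM in NC 24 h and 1.93 in NC 72 h (p = 0.0519, adjusted p = 0.416). By this exact permutation test 0 of the 8 genes had an unadjusted p under 0.05. Krt8 and Mal were at 0 in all control libraries.

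The smaller set of libraries differed from the larger in the size of several of these changes. Sprr1a had a log2 fold change of 3.65 ± 0.28 in the larger and 1.80 ± 0.41 in the smaller set at 24 h, and of 4.72 ± 0.32 and 3.40 ± 0.24 at 72 h. For Cd24a the values were 3.66 ± 0.35 and 2.39 ± 0.40 at 24 h and 5.02 ± 0.27 and 3.61 ± 0.37 at 72 h. Krt19 gave 1.35 ± 0.18 and 0.43 ± 0.15 at 24 h, and 2.70 ± 0.11 and 2.21 ± 0.16 at 72 h. The 2 KD 24 h libraries of the smaller set, at 22.9 and 25.4 RPKM of Krt19, are those that overlap the controls. Olr1, Tfpi2 and Tmem59l differed less between the sets at 72 h, with 1.54 ± 0.21 and 1.67 ± 0.22 for Olr1, 1.87 ± 0.17 and 1.70 ± 0.18 for Tfpi2, and 4.6 ± 0.62 and 5.10 ± 0.41 for Tmem59l. The direction was towards KD in both sets for each of these genes, with 2 libraries a group in the smaller set, and what distinguishes the sets was not tested.

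Whether the 10 genes rise and fall together between libraries of a group was examined on deviations from group means. Over all 23 samples 0 of the 45 pairs had an adjusted permutation p under 0.05, with 10 pairs at an unadjusted p under 0.05 by Pearson and 9 by Spearman. As the libraries were divided into 2 sets, coefficients are given only within them, a split chosen after seeing the data. In the larger set (15 samples) 0 of the 45 pairs had an adjusted permutation p under 0.05, with 2 pairs at an unadjusted p under 0.05 by Pearson and 1 by Spearman. In the smaller set (8 samples) the within-group permutations cannot go below p = 0.13. For Krt19 and Sprr1a, r was 0.03 (rho = 0.10) in the larger set, with a permutation p of 0.93 and 0.76, adjusted to 0.95 and 0.98, and r was -0.24 without the 2 samples farthest from the median of Krt19. In the smaller set r was -0.26 (rho = -0.40), with a permutation p of 0.37 and 0.38, adjusted to 1.0 for both, and -0.37 without those 2 samples.

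**Figure D3:**
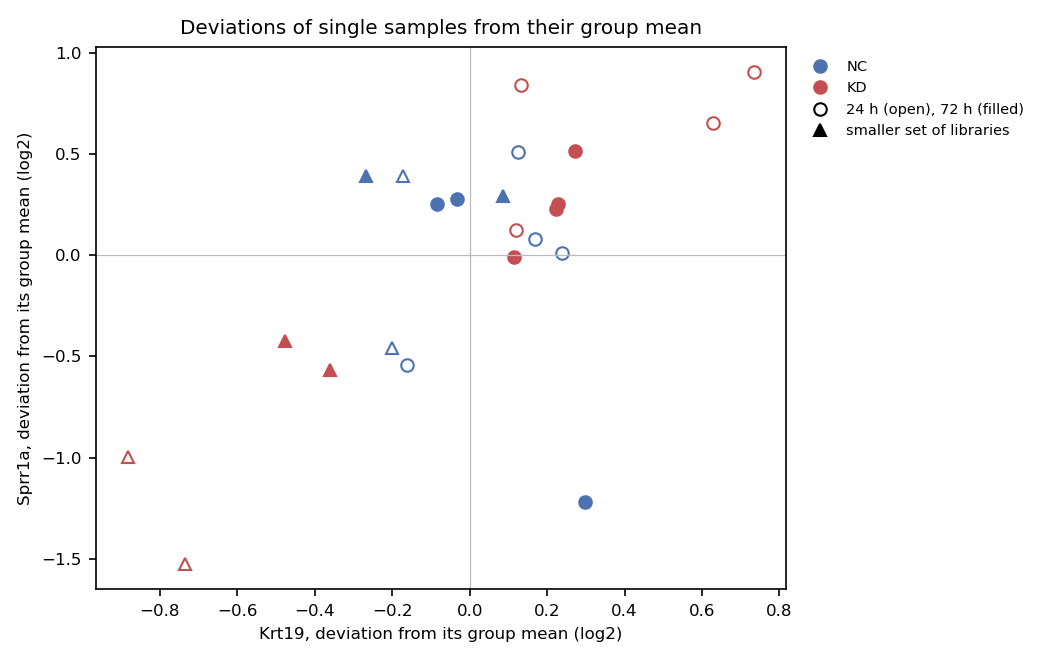
Deviation of each of the 23 samples from its group mean on the log2 scale, Krt19 on the x axis and Sprr1a on the y axis, NC in blue, KD in red, 24 h open, 72 h filled, triangles for the smaller set. The 4 KD samples of the smaller set lie at the lower left, and within the larger set r is 0.03.

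Few genes of the wider keratin family had enough reads for a test. Of the 18 other keratins listed, 5 were at 0 in all libraries, 14 had a mean under 1 RPKM in all groups, and 2 had enough reads for the test. As background, limma called 11.6% of all symbols tested as higher in KD and 11.6% as lower at 24 h, and 10.9% and 13.5% at 72 h. These shares stand beside each list below. The lists were chosen with earlier results of these data known, and nothing is read from their counts. Of the 2 keratins none was called at 24 h and 1 was higher at 72 h. The list medians were 0.31 and 0.65 on the log2 scale, against -0.01 over all symbols at both times. Krt13, a type I keratin of internal stratified epithelia, rose from 1.96 ± 0.54 RPKM in NC 72 h to 6.63 ± 1.21 in KD 72 h (log2 fold change 1.49 ± 0.21, adjusted p = 0.000311 by limma), with 1.68 in the larger set of libraries and 1.19 in the smaller, where it was not called (adjusted p = 0.0505). At 24 h its difference of 0.67 ± 0.30 did not pass (adjusted p = 0.123). Krt10, a suprabasal keratin of the epidermis, had 9.90 ± 2.37 RPKM in KD 72 h and 9.37 ± 1.20 in NC 72 h and was not called at either time (log2 fold change -0.19 ± 0.16, adjusted p = 0.414 at 72 h), and Krt79 had 0.83 and 1.33 RPKM. Of the keratins with fewer reads, singled out after their values were seen, Krt80 had 33 reads in KD 72 h and 4 in NC 72 h, Krt222 had 21 and 3, Krt14 had 14 and 0, at least 3.77-fold more, and Krt15 had 8 and 0. The 10 listed type II keratins, the potential partners of Krt19, summed to 2.04 ± 1.11 RPKM in KD 72 h and 1.40 ± 0.77 in NC 72 h, beside 169.6 ± 23.7 and 33.3 ± 3.04 for the type I keratins with Krt19.

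Among the cornified envelope genes the pattern was similarly sparse. Of 29 genes with an entry, 15 were at 0 in all libraries, among them Flg, Hrnr and 9 of the Sprr2 genes other than Sprr2k. Sequence shared among these genes was not examined. If reads matching several genes were dropped, a 0 need not mean absence. Only 1 of the 29 genes passed the filter. That gene, Sbsn (suprabasin), had no call at 24 h (log2 fold change -0.29 ± 0.29, adjusted p = 0.497 by limma) and rose at 72 h from 12.1 ± 8.62 to 48.1 ± 22.1 RPKM (1.86 ± 0.46, adjusted p = 0.0103, which is also the list's median). Its call was lost without replicate 1 (1.65, adjusted p = 0.0559) and without replicate 4 (1.38, adjusted p = 0.0514) of both groups. Krtdap had 10 reads in KD 72 h and 5 in NC 72 h. Of the genes with fewer reads, involucrin (Ivl), the scaffold of the envelope, had 40 reads in KD 72 h and 2 in NC 72 h, a ratio of 16.1 (4.18 to 138), and the KD samples did not overlap the controls. Sprr1b, singled out after its values were seen, had 62 reads in KD 72 h and none in NC 72 h, at least 16.7-fold more, with reads in all 6 KD libraries.

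**Figure D4:**
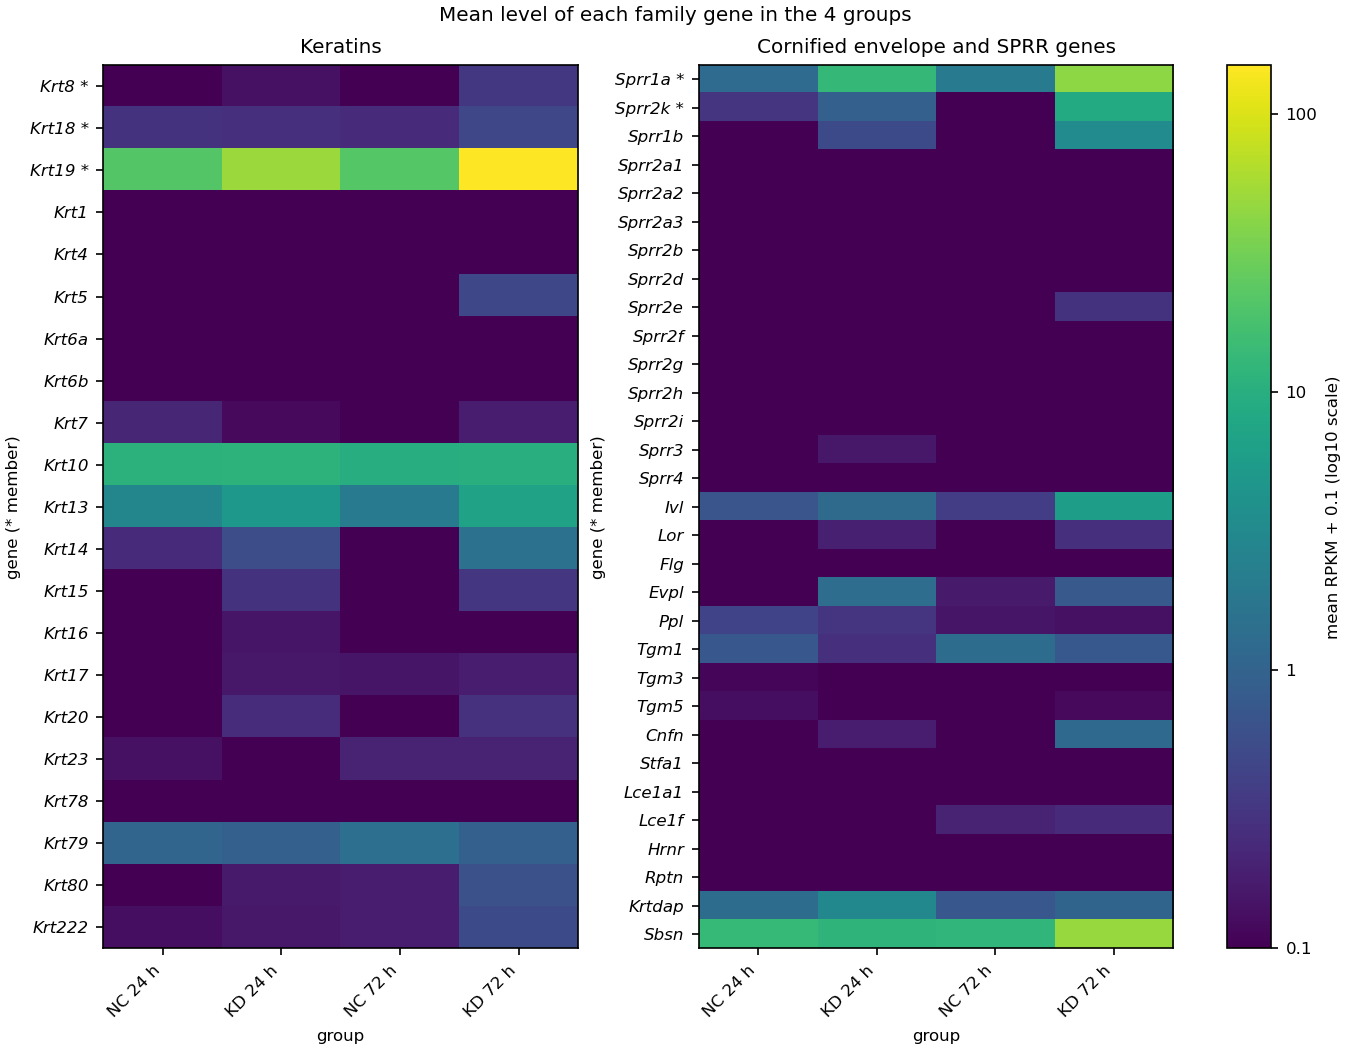
Mean level of each listed keratin (left) and cornified envelope or SPRR gene (right) in the 4 groups, as RPKM + 0.1 on a log10 colour scale, with the genes of the report starred. Krt19, Sprr1a, Sprr2k and Sbsn each have their highest mean in KD 72 h. Of the genes without a star, 14 of 18 keratins and 22 of 29 cornified envelope or SPRR genes stay under 1 RPKM in all groups.

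Genes of epithelial junctions and epithelial identity were mixed, and those that define epithelial cells were near 0. Epcam had a mean of at most 0.02 RPKM and Cdh1 (E-cadherin) of at most 0.03 in any group, Dsp (desmoplakin) 0.18 in KD 72 h, and 31 of the 39 genes stayed under 1 RPKM in all groups. Of the 4 genes with enough reads, 2 were higher and none lower in KD at 24 h, and 3 were higher and none lower at 72 h, with medians of 0.92 and 1.58. The label of an epithelial signature is thus borne by single genes rather than by the defining markers of epithelia.

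Lamb3, a laminin chain of epithelial basement membranes, rose at 72 h from 0.99 ± 0.55 to 5.47 ± 1.04 RPKM (log2 fold change 2.25 ± 0.31, adjusted p = 0.000241 by limma) and had too few reads at 24 h. The desmosomal plaque genes Pkp2 (plakophilin 2; 1.5 ± 0.34 and 1.87 ± 0.27, adjusted p = 0.00754 and 0.000299) and Jup (plakoglobin; 1.32 ± 0.31 and 1.29 ± 0.32, adjusted p = 0.0091 and 0.0107) rose at both times. In the smaller set of libraries at 24 h the values were 0.76 for Pkp2 and 0.25 for Jup, neither of which was called, against 1.85 and 1.84 in the larger set. Jup was not called in the smaller set at 72 h either (0.90, adjusted p = 0.215), nor without replicate 6 of both groups (1.04, adjusted p = 0.0523). Esrp2, an epithelial splicing regulator, was not called (0.51 ± 0.35 and 0.02 ± 0.23, adjusted p = 0.306 and 0.962), and Klf5 had 109 reads in KD 24 h, 26 in NC 24 h, 64 in KD 72 h and 16.5 in NC 72 h. Cldn4, singled out after its values were seen, had 103 reads in KD 72 h against 1 in NC 72 h and 23 against 0 at 24 h, at least 8.10-fold more at the earlier time.

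Other intermediate filament and linker genes, from lamins to plakins, were mixed. Of 8 tested, 3 were higher and 1 lower at 24 h and 1 was higher and none lower at 72 h (medians 0.32 and 0.20). Vim, the intermediate filament of mesenchymal cells, rose at 24 h from 772 ± 44.7 to 1304 ± 386 RPKM (log2 fold change 0.65 ± 0.13, adjusted p = 0.00365 by limma) and was not called at 72 h (0.19 ± 0.08, adjusted p = 0.0984). Its 24 h value came to 0.85 in the larger set and 0.22 in the smaller, the latter not called. Pnn (pinin) rose at 24 h by 0.95 ± 0.17 (adjusted p = 0.00231), with 1.20 and 0.43 in the 2 sets. Lmnb1 rose by 2.15 ± 0.50 at 24 h and 1.11 ± 0.36 at 72 h (adjusted p = 0.00789 and 0.0408), a call that was lost at 72 h without NC 72 h replicate 6 (0.87, adjusted p = 0.102) and without replicate 1, 3, 5 or 6 of both groups. The larger set gave 2.81 and 1.63 for Lmnb1 at the 2 times, and in the smaller set it was called at neither (0.82 and 0.19, adjusted p = 0.348 and 0.875). Macf1 was lower at 24 h (-0.60 ± 0.21, adjusted p = 0.0481), which was lost without any of the replicates 1 to 5 and in either set alone, while at 72 h it was lower in the smaller set (-1.15, adjusted p = 0.0392), and Lmna and Dst were not called at either time.

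More genes of the stress and injury list were higher than lower in KD at both times. At 24 h 16 of 28 genes tested were higher in KD and 1 was lower (Il1rn), and at 72 h 11 of 32 were higher and none lower, with medians of 0.70 and 0.39 against -0.01. Over all symbols tested, 11.6% were higher at 24 h and 10.9% at 72 h. As the list was chosen with earlier results of these data known, nothing is read from its counts. Klf4, a zinc-finger factor of epithelial barrier and stress programmes, rose by a log2 fold change of 2.59 ± 0.64 at 24 h and 1.55 ± 0.28 at 72 h (adjusted p = 0.0108 and 0.00133 by limma). Hbegf, an EGF receptor ligand of wound repair, rose by 2.19 ± 0.51 and 1.67 ± 0.43 (adjusted p = 0.00839 and 0.0134), and Plaur, the urokinase receptor, by 1.93 ± 0.23 and 2.05 ± 0.23 (adjusted p = 0.000129 and 5.36e-05). Gdf15, a stress cytokine, rose from 7.18 ± 1.64 to 30.4 ± 10.8 RPKM at 24 h (1.95 ± 0.22, adjusted p = 0.000108) and by 0.60 ± 0.16 at 72 h (adjusted p = 0.0138). Of these 4 genes Plaur was called in both sets at both times, with 1.22 in the smaller set at 24 h, where Klf4 (0.66), Hbegf (0.85) and Gdf15 (1.05) were not.

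Single replicates decided some of these calls. Klf4 at 24 h was lost without replicate 1 of both groups (2.17, adjusted p = 0.0581 by limma), Hbegf at 72 h without replicate 4 (1.59, adjusted p = 0.0525), and Gdf15 at 72 h without replicate 1 (0.53, adjusted p = 0.0715) or 5 (0.52, adjusted p = 0.0516). Hmox1, the heme oxygenase of the oxidative stress response, was not called (0.48 ± 0.25 and 0.50 ± 0.37, adjusted p = 0.176 and 0.363). Fos, an immediate early gene, was not called either (-0.05 ± 0.19 and 0.40 ± 0.15, adjusted p = 0.873 and 0.075), although on the deposited scale it passed at 72 h (0.65, adjusted p = 0.00904). Jun, singled out after its values were seen, rose at 24 h from 3.34 ± 1.21 to 14.05 ± 8.0 RPKM (1.78 ± 0.41, adjusted p = 0.00739 by limma). At 72 h Jun was not called (0.50 ± 0.31, adjusted p = 0.271 by limma). Fosl1, Fosl2, Junb and Jund were called at neither time, and Fosb had too few reads. In control cells over time 5 of 28 genes of this list were higher and 1 lower, and Fos was lower (-0.72 ± 0.17, adjusted p = 0.0165), which was lost without replicate 1 of both groups (-0.58, adjusted p = 0.0675).

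Relatives of the remaining 5 genes showed no common direction. Of 13 tested at 24 h, 3 were higher and 1 lower, and of 14 at 72 h, 5 were higher and 3 lower (medians -0.08 and 0.02). Mal2, a relative of Mal, fell at 72 h from 6.42 ± 1.57 to 3.56 ± 0.85 RPKM (log2 fold change -1.08 ± 0.23, adjusted p = 0.004 by limma, with -0.89 and no call in the smaller set), while Mal had reads in KD 72 h alone. Tmem59, the paralog of Tmem59l, had 192.8 ± 20.9 and 166.4 ± 17.0 RPKM at 72 h and was not called (-0.04 ± 0.10, adjusted p = 0.814). Among scavenger receptors and lectins related to Olr1, Cd68 rose by 1.94 ± 0.47 at 72 h (adjusted p = 0.00963), Scarf2 by 1.29 ± 0.35 (adjusted p = 0.0164) and Clec1a by 1.91 ± 0.50 (adjusted p = 0.0136), whereas Cd36 was not called over all libraries (-0.62 ± 0.27, adjusted p = 0.113). Within the sets Cd36 had -0.20 in the larger, not called, and fell in the smaller (-1.46, adjusted p = 0.000356). The Cd68 change at 72 h came to 3.00 in the larger set and 0.24 in the smaller, and its 24 h value of 1.23 ± 0.33 (adjusted p = 0.017) was lost without replicate 1, 2, 3 or 4 of both groups and in the smaller set (0.42, adjusted p = 0.335). Scarf2 rose by 1.17 ± 0.29 at 24 h (adjusted p = 0.0108), lost without replicate 1 (1.05, adjusted p = 0.0525), and its 72 h call was lost without replicate 1 (1.33, adjusted p = 0.0506) or 6 (1.18, adjusted p = 0.0623). In the smaller set Scarf2 was called at neither time (0.84 and 0.95, adjusted p = 0.356 and 0.12). The Clec1a call was lost without replicate 4 (1.79, adjusted p = 0.0524) and in either set alone (1.85 and 2.08).

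**Figure D5:**
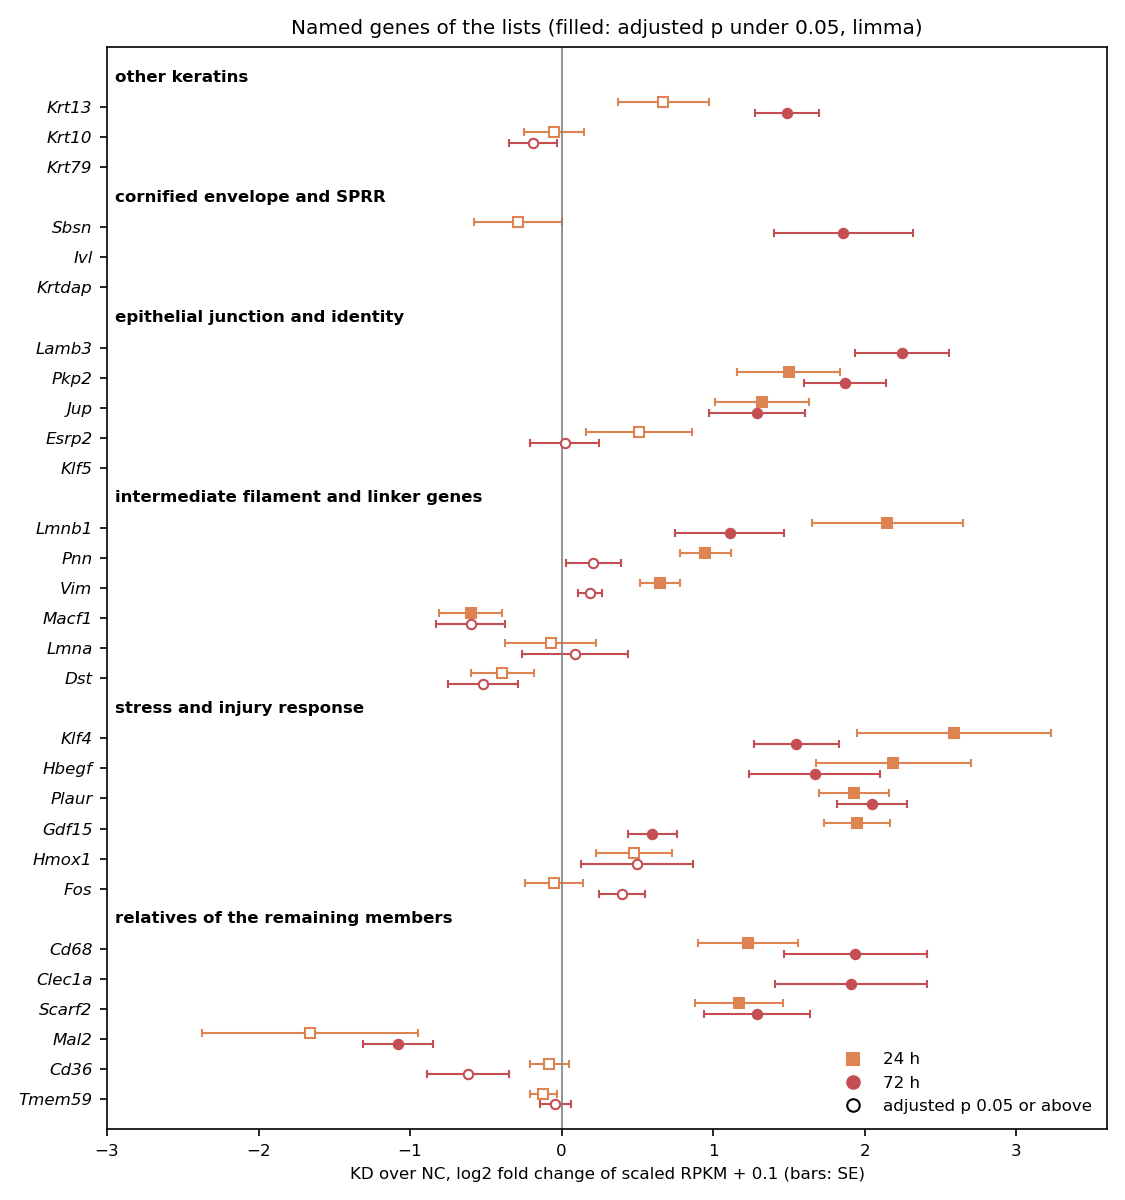
KD over NC log2 fold change of scaled RPKM + 0.1 with SE bars for the named genes of the 6 lists at 24 h (squares) and 72 h (circles), filled where the adjusted p by limma was under 0.05. Lamb3, at 2.25, is the highest value at 72 h, and genes without a point had too few reads.

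Marker genes of other cell types are given beside the 10 genes. Keratinocyte markers summed to 32.6 to 88.4 RPKM in KD 72 h and 14.2 to 37.2 in NC 72 h, with Krt1 and Dsg3 at 0 in all libraries. Of 2 tested markers Sbsn was higher and Krt10 was not called. Krt14 had 14 reads in KD 72 h and 0 in NC 72 h, and Krt5 had means of 0.39 and 0 RPKM. Mammary epithelial markers summed to 11.4 to 27.0 and 7.43 to 21.4, with Csn2 at 0 and Epcam at or near 0. Neither of the 2 tested mammary markers was called at 72 h. Of the others, Cldn4 had 103 reads in KD 72 h and 1 in NC 72 h, and Cldn3 had 9 and 0. Aldh1a3 had 32 and 34 reads and Wfdc18 had 0 and 1.5. Mesothelial markers summed to 48.8 to 68.4 and 39.6 to 73.4 RPKM, with Upk3b, Gpm6a and Muc16 at 0. Of the mesothelial genes Cldn15, a claudin, rose at 72 h from 6.33 to 24.35 RPKM (log2 fold change 1.68 ± 0.20, adjusted p = 6.42e-05 by limma) and Lrrn4 was lower (-0.78 ± 0.13, adjusted p = 0.000999), while Msln (mesothelin) had 45 reads in KD 72 h and 0 in NC 72 h. Wt1, also tested, had 4.33 ± 2.03 RPKM in KD 72 h and 14.8 ± 13.43 in NC 72 h. It was not called (-1.42 ± 0.63, adjusted p = 0.121 by limma). The mesothelial sum thus pools genes that differed in direction. The ranges of the 3 summed lists overlapped between KD and NC at 72 h. At 24 h they overlapped as well, at 19.1 to 34.7 and 19.8 to 35.9 RPKM for keratinocyte markers.

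Adipocyte markers, 8 of 8 detected, summed to 42600 to 50000 RPKM in KD 72 h against 52400 to 61300 in NC 72 h, and 3 of the 8 were lower by limma at each time. Schwann and glial markers summed to 69.4 to 102 against 109 to 165 RPKM at 72 h, with Gfap at 0, and macrophage markers to 33.6 to 45.1 against 40.3 to 128, with 2 of 3 tested genes higher and 1 lower. Cd68 (1.94) and Csf1r (1.24 ± 0.24, adjusted p = 0.00202) were the higher ones, and Lyz2 fell from 61.05 ± 36.58 RPKM in NC 72 h to 6.82 ± 7.39 in KD 72 h (-3.94 ± 0.62, adjusted p = 0.00059). Endothelial markers summed to 11.2 RPKM at most in any library. The part of these cell types in the levels of the 10 genes was not tested.

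The genes whose level over the 23 samples was most like the mean of the 7 genes with enough reads were, of 11890 candidates, Akr1b8 (r = 0.969), Mageh1 (0.957), Cryab (0.952), Serpinb9b (0.946) and Serpinb9g (0.945), a description across samples that share group differences. Akr1b8, an aldo-keto reductase, had 103.8 RPKM in KD 24 h, 59.5 in NC 24 h, 360.3 in KD 72 h and 74.1 in NC 72 h. Cryab, a small heat shock protein, had 125.6, 50.4, 457.5 and 80.2 RPKM in the same order, and the serpin Serpinb9b 18.1, 7.23, 88.1 and 8.74. That they were highest in KD 72 h follows from how they were chosen.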

How the data were processed

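BRB-seq libraries (barcoded oligo-dT priming, 3′ ends, Tn5 tagmentation, Illumina sequencing) were mapped and quantified by the authors with the Genomatix software; its version, the genome build and filters are not given in the sources used here. The deposited table holds RPKM values of 168326 transcript entries in 24 libraries, and 0 columns were left unused. Whole reads were recovered from the steps of low RPKM values (95.1% to 95.6% whole in 23 libraries); lengths matched GENCODE for 90.9% of 23596 entries, and 12.4% of entries had no recovered length. Depth was 1391830 to 5423837 reads, so that 3 reads of a 2 kb transcript equal 0.28 to 1.08 RPKM. RPKM was scaled by trimmed means of log ratios, and entries worth 10 or more reads in a library of median depth, in as many samples as the smaller group holds, and 15 or more reads in all were kept and tested as log2(scaled RPKM + 0.1) with limma 3.58.1 in R 4.3.3 (two-sided, Benjamini-Hochberg over all entries). Called means an adjusted p under 0.05. Fold changes on this scale understate changes of low genes.

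Comparisons were KD against NC at 24 h and 72 h and NC 72 h against NC 24 h. KD 24 h replicate 6 was the shallowest library. Alternatives covered pseudocount, filter, scaling, voom on recovered reads, the 2 sets of libraries, a replicate block and leaving out replicates; those without NC 72 h replicate 6, the exact permutation test over time and the correlations within sets were chosen after seeing the data. Correlations used 100000 within-group permutations. Methods were tested on simulated data. The 10 genes, the gene lists, motifs and tests were chosen with earlier results of these data known. A listed gene is left out of the lists and not reported here. Named were the 10 genes and, of each list, up to 4 called genes of largest change and up to 2 of highest level not called, the 5 genes most like the set, and Ctcflos. Genomatix RPKM columns are the only values used.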

Additional observations from a re-analysis of the deposited data

Results flagged for a closer look

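Of 34 groups of samples tested for a single value far from the others, 4 held one. The rule flags about 1 in 20 groups of normally distributed values. That rate need not hold for counts of a few reads with many zeros, so no excess is read from the 4. Krt8 was at 0.84 RPKM in KD 72 h replicate 6, with the next library at 0.29. Krt18 was at 1.17 RPKM in NC 24 h replicate 1, the only library of that group with reads. Sprr2k was at 0.94 RPKM in NC 24 h replicate 3, with the next at 0.29. Sprr1a was at 0.70 RPKM in the averaged NC 72 h replicates 2 and 3, below 2.14 in the next sample. The pair itself had 1.40 and 0 RPKM, that is 4 and 0 reads. Over entries of low read number, however, the 2 libraries differed by less than counting noise alone gives (0.34 times). All 4 values rest on 6 reads or fewer in a library.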

How the results depend on the processing

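The KD against NC log2 fold changes of the 10 genes were recomputed 206 times over 12 values: 187 stayed within 1 SD, 19 moved further, mostly with pseudocounts of 0.5 or 1 or in the smaller set of libraries, and 0 changed sign. In control cells over time 3 of the 10 genes had enough reads for the main fit, and Krt8 and Mal were at 0 throughout. In every alternative run 0 of the 10 genes were called, against 5.48% of symbols higher and 4.81% lower in the main fit. For genes with too few reads this says nothing about change with time. Of 812 recomputed values of 48 results for list genes, 747 kept their call and direction, 57 lost and 7 gained the call, and 1 called value reversed: Lmna at 72 h was 0.09 ± 0.35 in all libraries, 0.58 (adjusted p = 0.00327 by limma) in the larger set and -0.94 (adjusted p = 0.0033) in the smaller; the cause was not tested.

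Over all entries limma called 11821 of 52005 at 24 h, 12170 of 54139 at 72 h and 4821 of 52694 in controls over time. With 1 entry per symbol, which tests fewer entries, it called 2397, 2664 and 1067, and in the smaller set, with fewer samples, 1564, 5848 and 1798. Leaving out replicates gave 6239 to 11641 at 24 h, 7722 to 10589 at 72 h and 3253 to 4162 in controls; the lowest counts came without replicate 2 at 24 h (6555 and 7028 without 1 and 5) and without replicate 1 otherwise. At 72 h 5618 entries were higher and 6552 lower, and on the deposited scale 13151 and 3104.

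Replicate numbers did not pair the samples: same-numbered deviations correlated by -0.08 at 24 h, 0.03 at 72 h and 0.04 in controls on average, with 1 of 6 pairs over 0.1 at each time. A replicate block gave 8746, 8245 and 2920 calls. Under it Scarf2 and Lmnb1 at 72 h and Macf1 at 24 h lost their calls (adjusted p = 0.0614, 0.0528 and 0.0523 by limma). Depth limits Krt8, Krt18 and the control levels of Sprr2k and Tmem59l to 12 reads or fewer in a group.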
